A study of Mus musculus with 8 samples.

Results

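The set consists of Cdkn1a, the gene of the cyclin-dependent kinase inhibitor p21, and 9 further genes of the p53 response, chosen by name. A gene entered when at least 1 array probe was annotated with its symbol alone. By this rule 8 of the 10 genes were measured, out of 19532 named genes in all: Cdkn1a, Mdm2, Ccng1, Gadd45a, Gadd45b, Gadd45g, Btg2 and Trp53inp1. Trp53 and Bax were not analysed here. The 8 genes were represented by 14 probes, with 1 probe each for Cdkn1a, Gadd45a and Gadd45g and several for the other 5.

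The transcription factor p53 is stabilised after DNA damage and other stresses and then activates genes that stop the cell cycle, repair DNA or start cell death. Mdm2 is both its target and the ubiquitin ligase that removes it, so the pathway holds a negative feedback loop. Several of its targets, Cdkn1a and the Gadd45 genes among them, also answer to inputs that do not need p53. In mouse liver Cdkn1a is known as a clock-controlled gene that is repressed by REV-ERB alpha.

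Liver RNA was hybridised to 1-colour Agilent arrays, 1 array per mouse, for 4 Per2Brdm1 mutant mice (titled KO) and 4 wild-type mice (WT). All 8 mice had a mixed 129sv and C57Bl/6 background, came from the same cohort and had been starved for 8 h when killed. In the circadian clock Per2 is a core repressor gene, and Brdm1 is a germline mutation that removes part of its PAS domain. Age and sex were not given in the sources used here.

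Each deposited value is relative to the probe's own median in these 8 livers, so the table shows differences between livers and no expression levels. They were read as log2 values with higher meaning brighter, since neither was stated, and each array was shifted to a common 75th percentile. A difference below is the mutant mean minus the wild-type mean, in log2 units, and is followed by ± its standard error in limma (4 mice a group). The call threshold was 0.05 for the p-value, adjusted by Benjamini and Hochberg's method across 28042 rows (named genes and unnamed probes). The 2 Per2 probes moved in opposite directions, A_51_P282760 by -1.70 and A_52_P536869 by 2.54 (limma over single probes, adjusted p = 0.000333 and 0.000123). Their positions in the transcript were not given, so they do not settle whether each lies in the deleted part. The control features averaged -0.57 and -0.28 on the arrays of wild type replicates 2 and 3, against -0.01 to 0.21 on the other 6. The shift left the 25th percentile of all other probes at -0.87 and -0.66 on these 2 arrays, against -0.19 to -0.11 on the other 6. These 2 arrays correlated most with each other (0.47). Wild type replicate 1 correlated with no other array above 0.08. With the values as deposited the median difference of all rows moved from 0.08 to 0.20, rows higher in mutants from 6.53% to 8.73% and rows lower from 8.94% to 5.48%.

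The p53 response genes did not move as a block in the mutant livers. Cdkn1a, Gadd45b and Btg2 rose, Gadd45a and Ccng1 fell, and Gadd45g, Trp53inp1 and Mdm2 did not pass. Thus 3 of 8 genes were higher, beside 7.13% of all named genes, and 2 were lower, beside 10.5% (together 5 of 8, beside 17.6%). The same 5 genes were those in which the 4 mutants lay wholly above the 4 wild types (3 genes) or wholly below them (2 genes), which held for 11.2% and 17.2% of named genes (28.4% together). The genes had been picked with earlier results in view, Cdkn1a for its large rise, so the excess over these shares is a description. The median difference of the 8 genes was 0.78, against 0.01 for all named genes.

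**Figure D1:**
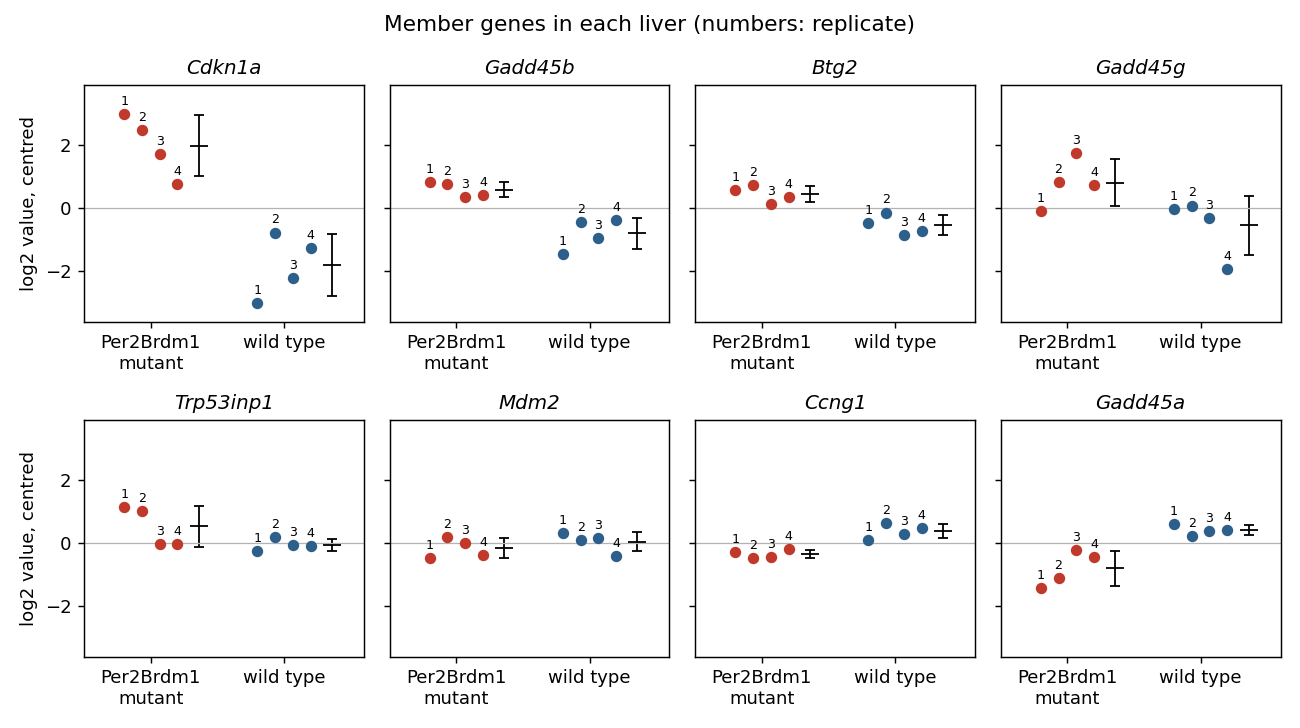
Centred log2 value (vertical axis) of the 8 measured genes in each of the 4 Per2Brdm1 mutant and 4 wild-type livers, with replicate numbers beside the points and the mean with SD as a black bar. Cdkn1a has the widest spread and the widest gap between genotypes, with mutants from 0.77 to 2.97 and wild types from -2.99 to -0.77.

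Cdkn1a rose most. Its values were 2.97, 2.47, 1.70 and 0.77 in mutant replicates 1 to 4, against -2.99, -0.77, -2.20 and -1.27 in wild type replicates 1 to 4. Every mutant lay above every wild type, and the closest livers of the 2 genotypes, mutant replicate 4 and wild type replicate 2, were 1.54 apart. The means were 1.98 ± 0.96 in mutants and -1.81 ± 0.99 in wild types (SD, n = 4 each). The difference of 3.79 ± 0.61 (adjusted p = 0.00635 in limma) amounts to 13.8-fold, with a 95% interval of 5.18 to 36.8-fold, and it was the ninth highest among the 19532 named genes. The exact two-sided permutation test over the 8 livers gave p = 0.0286, the smallest that 4 against 4 allow. It is unadjusted and follows whenever the groups do not overlap, which held for 28.4% of named genes. As Cdkn1a was picked for its large rise, this p adds no support. The gene varied widely between mice of the same genotype: its SD was larger than that of 94.5% of named genes within the mutants and of 94.1% within the wild types. Without wild type replicates 2 and 3 the difference was 4.11 (adjusted p = 0.0365), and leaving out any single mouse gave 3.39 to 4.19 with adjusted p = 0.0076 to 0.0223.

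The Cdkn1a gene has 2 annotated starts, and the array carried 1 probe for it, A_51_P363947, with which the starts cannot be told apart. Both start regions are shown because p53 is known to bind near the gene, together with those of Gadd45b and Gadd45a, 2 related genes that moved in opposite directions. Each window runs from 250 bases before to 50 bases after a start, 5′ to 3′ along the gene, from RefSeq on GRCm38.p6. Capitals mark matches to the p53 half-site, or in Gadd45b to the E-box CACGTG, which is the binding site of the Clock and Arntl pair.
Cdkn1a, upstream start, chr17:29090729-29091028, plus strand: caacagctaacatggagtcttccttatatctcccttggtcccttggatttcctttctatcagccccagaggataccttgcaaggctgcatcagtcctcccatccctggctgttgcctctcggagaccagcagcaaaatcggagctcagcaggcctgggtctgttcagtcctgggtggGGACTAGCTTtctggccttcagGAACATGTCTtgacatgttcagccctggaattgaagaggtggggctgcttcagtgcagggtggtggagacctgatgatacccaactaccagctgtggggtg
Cdkn1a, downstream start, chr17:29093519-29093818, plus strand: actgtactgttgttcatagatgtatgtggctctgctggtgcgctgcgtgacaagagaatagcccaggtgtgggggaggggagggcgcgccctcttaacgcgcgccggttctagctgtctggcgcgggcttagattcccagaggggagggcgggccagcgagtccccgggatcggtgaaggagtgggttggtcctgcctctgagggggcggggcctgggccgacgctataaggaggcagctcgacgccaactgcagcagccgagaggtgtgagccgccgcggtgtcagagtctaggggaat
Gadd45b, chr10:80929841-80930140, plus strand: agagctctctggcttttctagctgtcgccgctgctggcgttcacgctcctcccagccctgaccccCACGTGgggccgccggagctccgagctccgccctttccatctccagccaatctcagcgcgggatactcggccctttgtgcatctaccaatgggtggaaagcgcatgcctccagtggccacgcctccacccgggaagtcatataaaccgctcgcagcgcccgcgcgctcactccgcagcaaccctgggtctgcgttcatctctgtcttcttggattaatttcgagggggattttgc
Gadd45a, chr6:67037358-67037657, minus strand: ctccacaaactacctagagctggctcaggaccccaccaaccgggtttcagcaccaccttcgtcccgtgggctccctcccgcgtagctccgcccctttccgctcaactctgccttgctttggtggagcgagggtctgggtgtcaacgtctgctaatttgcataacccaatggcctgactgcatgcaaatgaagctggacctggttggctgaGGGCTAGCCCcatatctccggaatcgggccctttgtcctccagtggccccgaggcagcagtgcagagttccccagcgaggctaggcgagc

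The motifs searched on both strands were CACGTG, the ROR element core AGGTCA, the D-box TTATGTAA and the p53 half-site, none of which overlapped another in these windows. The upstream Cdkn1a window held 2 half-sites, at -73 to -64 and at -51 to -42 from that start, and the downstream window held none of the 4 motifs. Half-sites also lay in the windows of Gadd45a (-40 to -31), Ccng1 (-185 to -176) and Mdm2 (-186 to -177), that is in genes that fell or did not pass. RefSeq gave windows for 7 of the 8 genes, Trp53inp1 being the other. Of their 8 windows 4 held a half-site, against 8.36% of all 32851 promoter windows and 7.37% of those of measured genes. The genes were chosen as p53 response genes, so this excess is no result of the arrays. The E-box was found in Gadd45b (-185 to -180) and Gadd45g (-142 to -137), against 7.15% of all windows. The ROR element core was found in Btg2, on the minus strand at -150 to -145, against 16.3%, and the D-box in 0 of the 7 genes, against 0.938%. A half-site match does not show p53 binding, and sites outside these windows were not searched. The part of p53 in these differences was not tested.

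The 3 Gadd45 genes, whose small proteins bind and activate the stress kinase MAP3K4, did not move together. Gadd45b, also known as Myd118, measured 0.82, 0.77, 0.34 and 0.42 in mutant replicates 1 to 4, against -1.44, -0.45, -0.94 and -0.37 in wild type replicates 1 to 4. The lowest mutant was at 0.34 and the highest wild type at -0.37. It rose by 1.39 ± 0.26 (2.61-fold, adjusted p = 0.0109 in limma).

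Gadd45a, the founding member of the family and a classical p53 target, went the other way. It measured -1.42, -1.12, -0.23 and -0.45 in mutant replicates 1 to 4, against 0.61, 0.22, 0.36 and 0.40 in wild type replicates 1 to 4. The wild types were tight and the mutants were not, with SDs of 0.56 in mutants and 0.16 in wild types. It fell by 1.20 ± 0.27 on the log2 scale (adjusted p = 0.0216 in limma).

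Gadd45g, a cytokine-induced member, measured -0.08, 0.81, 1.76 and 0.73 in mutant replicates 1 to 4, against -0.04, 0.08, -0.32 and -1.91 in wild type replicates 1 to 4. Mutant replicate 1 lay among the wild types, and wild type replicate 4 was far below the others. The difference was 1.35 ± 0.53, with a 95% interval of 0.12 to 2.58 and adjusted p = 0.132 in limma. Without wild type replicate 4 it was 0.90 (adjusted p = 0.176). The calls of Gadd45b and Gadd45a ended without wild type replicates 2 and 3 (1.49 and -1.31, adjusted p = 0.0593 and 0.105). Gadd45a also lost its call when mutant replicate 2 or any one of wild type replicates 1, 3 and 4 was left out, with -1.22 to -1.10 and adjusted p = 0.0507 to 0.0603.

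Btg2 encodes an antiproliferative protein that recruits the CCR4-NOT deadenylase to mRNA. It measured 0.56, 0.72, 0.13 and 0.36 in mutant replicates 1 to 4, against -0.47, -0.14, -0.85 and -0.71 in wild type replicates 1 to 4. The groups did not overlap, with mutant replicate 3 and wild type replicate 2 only 0.27 apart. Btg2 rose by 0.99 ± 0.20 (1.98-fold, adjusted p = 0.0143 in limma).

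Trp53inp1 encodes a stress-induced nuclear protein that promotes p53 phosphorylation and also acts in autophagy. It measured 1.14, 1.01, -0.04 and -0.03 in mutant replicates 1 to 4, against -0.27, 0.18, -0.05 and -0.10 in wild type replicates 1 to 4. Mutant replicates 1 and 2 stood well above all other livers, and mutant replicates 3 and 4 lay within the wild-type range. The difference of 0.58 ± 0.30 did not pass (95% interval -0.13 to 1.29, adjusted p = 0.21 in limma).

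Of the 2 genes in the set whose products restrain p53 through MDM2, Mdm2 did not pass and Ccng1 fell. Mdm2, the ubiquitin ligase of p53, measured -0.49, 0.20, -0.0042 and -0.39 in mutant replicates 1 to 4, against 0.32, 0.10, 0.16 and -0.41 in wild type replicates 1 to 4. The genotypes overlapped. The difference was -0.21 ± 0.21, with a 95% interval of -0.71 to 0.28 and adjusted p = 0.486 in limma. The upper end of that interval lies below the lower end of the interval of Cdkn1a (2.37).

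Ccng1, whose product cyclin G1 recruits protein phosphatase 2A to MDM2, fell by less than Gadd45a did. It measured -0.28, -0.49, -0.45 and -0.20 in mutant replicates 1 to 4, against 0.11, 0.62, 0.28 and 0.47 in wild type replicates 1 to 4. All mutants were below 0 and all wild types above it. It fell by 0.73 ± 0.14 on the log2 scale (adjusted p = 0.0135 in limma). Its call ended when wild type replicates 2 and 3 were left out (-0.65, adjusted p = 0.0807).

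**Figure D2:**
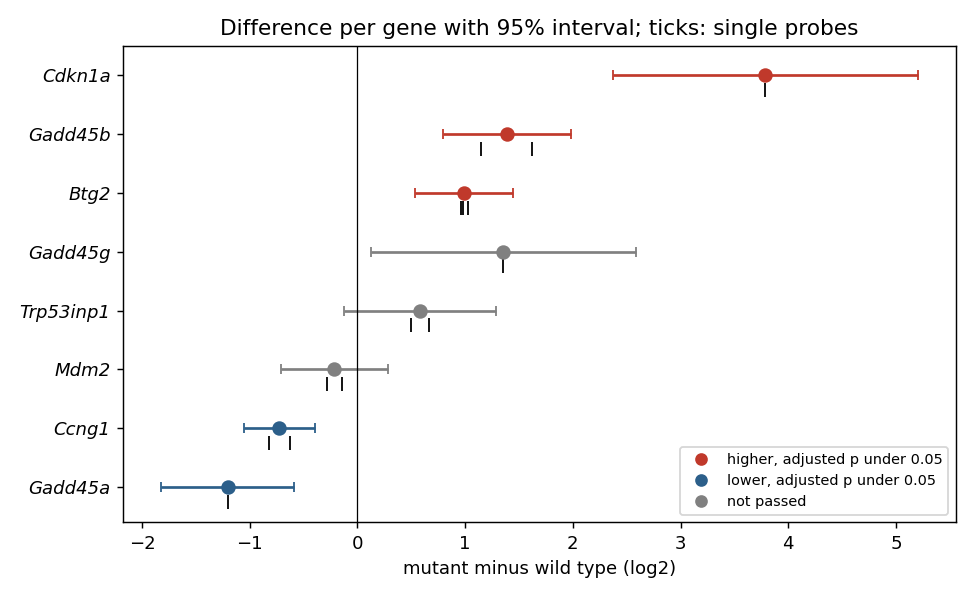
Mutant minus wild type difference on the log2 scale (horizontal axis) for each gene, with the 95% interval of the limma fit and the single probes as ticks. Cdkn1a lies at 3.79, Gadd45b at 1.39 and Btg2 at 0.99, while Gadd45a and Ccng1 lie at -1.20 and -0.73 and the intervals of Trp53inp1 and Mdm2 include 0.

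Where a gene had several probes, these went the same way. The 3 Btg2 probes differed by 0.97 to 1.02, the 2 Gadd45b probes by 1.15 and 1.62 and the 2 Ccng1 probes by -0.83 and -0.63. Each of these 7 probes passed in the limma fit over single probes. They were refitted 9 times, with values as deposited and without each single mouse. Btg2 probe A_52_P35217 and Ccng1 probe A_52_P612803 lost their call in 6 refits each, and Btg2 probe A_52_P31543 in 3. The other probes of these genes kept theirs throughout. The 2 Trp53inp1 probes differed by 0.49 and 0.67 and the 2 Mdm2 probes by -0.29 and -0.14, and none of the 4 passed. In all 6 of 14 probes were higher, beside 6.36% of all probes, and 3 were lower, beside 9.92% (together 9, beside 16.3%).

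Within the mutants, a placing noticed after the values were seen recurred in part of the set. Mutant replicates 1 and 2 were the 2 highest mutants for Cdkn1a, Gadd45b, Btg2 and Trp53inp1 and the 2 lowest for Gadd45a. This is 4 of 8 genes in the first sense and 1 in the second, where 20.2% and 20.6% of named genes have these 2 mice as the highest and the lowest pair. Ccng1, Mdm2 and Gadd45g did not follow it. Among the wild types replicates 1 and 3 were the 2 lowest for Cdkn1a, Gadd45b and Ccng1, a placing found in 12.1% of named genes, and the 2 highest for Mdm2, as for 13.2%.

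The named genes nearest to Cdkn1a over the 8 livers, by the root mean square difference of values centred on each gene's mean, were Cxcl14, Setdb2, Igfbp1, Lrfn3, Hspa1a, Gast, Arntl and Rnase10. Their distances were 0.73 to 0.86, and their differences between genotypes ran from 2.51 to 3.64. Igfbp1 encodes a fasting-induced binding protein of insulin-like growth factors, Hspa1a an inducible heat shock protein and Arntl the partner of Clock. Of these, Hspa1a came nearest to the steep spread of Cdkn1a within the mutants, with 3.07, 1.69, 0.76 and 0.32 in mutant replicates 1 to 4, against -1.50, -0.32, -1.20 and -1.17 in wild type replicates 1 to 4. Cxcl14, at the smallest distance, was even within each genotype, with mutants between 1.59 and 1.98. None of the other 7 genes of the set was among the 8 nearest. The values were not scaled, so a gene with a smaller or opposite genotype difference lies further off whatever its order of mice. The ranks thus largely restate the differences. Gadd45b came 140th, Btg2 540th, Trp53inp1 1020th, Gadd45g 1541st, Mdm2 12718th, Ccng1 15597th and Gadd45a 17278th of 18007 genes.

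**Figure D3:**
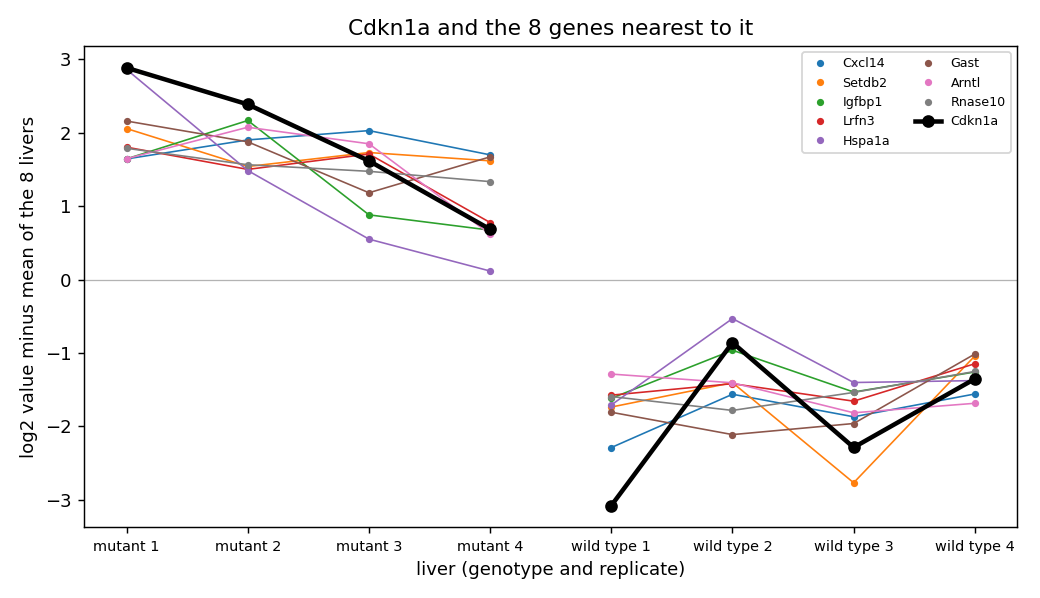
Log2 value minus the gene's mean over the 8 livers (vertical axis) for Cdkn1a (black) and the 8 nearest genes, in 4 mutant and 4 wild-type livers; lines only join the points of a gene. Cdkn1a and Hspa1a spread more widely over the mutants than Cxcl14 does.

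Other known p53 targets were called at close to the shares of all named genes. Of 39 measured genes in 3 lists 2 rose and 5 fell, beside 7.13% and 10.5% of all named genes, with a median difference of -0.16. In the cell death list 1 of 14 rose, the death receptor gene Tnfrsf10b (0.69 ± 0.14, adjusted p = 0.0166 in limma). The 3 that fell were Bid, which links death receptors to mitochondria (-1.32 ± 0.19, adjusted p = 0.00447), the apoptosis-enhancing nuclease gene Aen (-0.98 ± 0.27, adjusted p = 0.0458) and the apoptosis inhibitor gene Triap1 (-0.41 ± 0.11, adjusted p = 0.0389). Among 16 genes of arrest and growth control Sesn2, an inhibitor of mTORC1 signalling that also answers to amino acid stress, rose by 0.46 ± 0.11 (adjusted p = 0.0277) and 0 fell in limma. Among 9 DNA repair genes Mgmt, which removes alkyl groups from guanine, fell by 1.08 ± 0.09 on the log2 scale (adjusted p = 0.000777) and Polh, a translesion polymerase gene, differed by -1.07 ± 0.23 (adjusted p = 0.0195), while 0 rose. Mgmt separated the genotypes widely, with mutants from -0.67 to -0.46 and wild types from 0.43 to 0.53. At an unadjusted p under 0.05 in limma, 1 gene of arrest and growth control was lower and 1 repair gene was higher.

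The regulators of p53 were called no more often than named genes at large. Of 15 measured genes 1 rose, beside 7.13% of all named genes, and 0 fell, beside 10.5%. The 1 that rose was Ppm1d, the gene of the phosphatase WIP1, which is itself a p53 target and dampens p53 (0.67 ± 0.13, adjusted p = 0.0114 in limma). The median of the 15 was 0.00048. At an unadjusted p under 0.05, 2 of the 15 were higher and 2 lower, beside 13.7% and 16.6% of all rows. The p53 relatives Trp63 and Trp73 differed by -0.27 and 0.20 and did not pass (adjusted p = 0.439 and 0.766). Among 7 other inhibitors of cyclin-dependent kinases 1 fell, Cdkn1c, the gene of p57 (-0.54 ± 0.15, adjusted p = 0.0495 in limma), and 0 rose. The shares of all named genes were 10.5% and 7.13%. At an unadjusted p under 0.05, 2 of the 7 were higher and 2 lower.

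The cell cycle genes on which p21 acts gave calls in both directions. Beside the calls below, 7.13% of all named genes were higher and 10.5% lower. Of 10 cyclins and kinases that p21 binds, the S phase cyclin gene Ccna2 rose by 1.24 ± 0.18 (adjusted p = 0.00393 in limma) and the G1 kinase gene Cdk6 fell by 0.77 ± 0.13 on the log2 scale (adjusted p = 0.00787). Of 14 genes known to be repressed through p21 and the DREAM complex, the mitotic cyclin gene Ccnb2 (0.74 ± 0.13) and the topoisomerase gene Top2a (0.83 ± 0.15) rose, and E2f1, an S phase transcription factor, fell (-0.63 ± 0.13), with adjusted p = 0.0086, 0.0101 and 0.018. The median of these 14 genes was 0.40, against 0.01 for all named genes. At an unadjusted p under 0.05 in limma, 5 of the 14 were higher and 1 lower. Of the 10 cyclins and kinases 2 were higher and 1 lower, beside 13.7% and 16.6% of all rows.

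Around Bax and the Gadd45 proteins 2 genes were called in each list (2 of 10 and 2 of 7, beside 17.6% of all named genes). Of 10 BCL2 family genes 2 rose, the pro-apoptotic genes Bik (1.38 ± 0.13, adjusted p = 0.000963 in limma) and Bok (0.66 ± 0.13, adjusted p = 0.0134), and 0 fell, with a median of 0.01. Of 7 kinase genes downstream of Gadd45 proteins 2 fell and 0 rose. They were Map2k3 and Map2k6, 2 of the kinases that can activate p38, at -1.21 ± 0.10 and -1.44 ± 0.25 (adjusted p = 0.000566 and 0.00797). Map2k3 ran from -0.78 to -0.56 in mutants and from 0.53 to 0.68 in wild types. At an unadjusted p under 0.05, 1 BCL2 family gene was lower and 0 kinase genes were higher.

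Among 7 measured clock regulators of Cdkn1a, Arntl (3.10 ± 0.31) and Clock (1.12 ± 0.27) rose and the REV-ERB beta gene Nr1d2, a repressor at ROR elements, fell (-0.51 ± 0.12), with adjusted p = 0.00117, 0.0284 and 0.0227 in limma. The Per2 average (0.42 ± 0.11) also passed but joins probes that moved in opposite directions. Nr1d1, the REV-ERB alpha gene, differed by 0.12 ± 0.18 (adjusted p = 0.659) and Rora by -0.22 ± 0.16 (adjusted p = 0.328). Among 13 other transcription factors known to act on Cdkn1a 3 fell and 0 rose: Smad3 (-0.80 ± 0.19), Cebpa (-0.59 ± 0.13) and the antioxidant regulator gene Nfe2l2 (-0.40 ± 0.11), with adjusted p = 0.0274, 0.0186 and 0.0475 in limma. None of the 13 was higher at an unadjusted p under 0.05 either. At the adjusted threshold 7.13% of all named genes were higher and 10.5% lower.

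**Figure D4:**
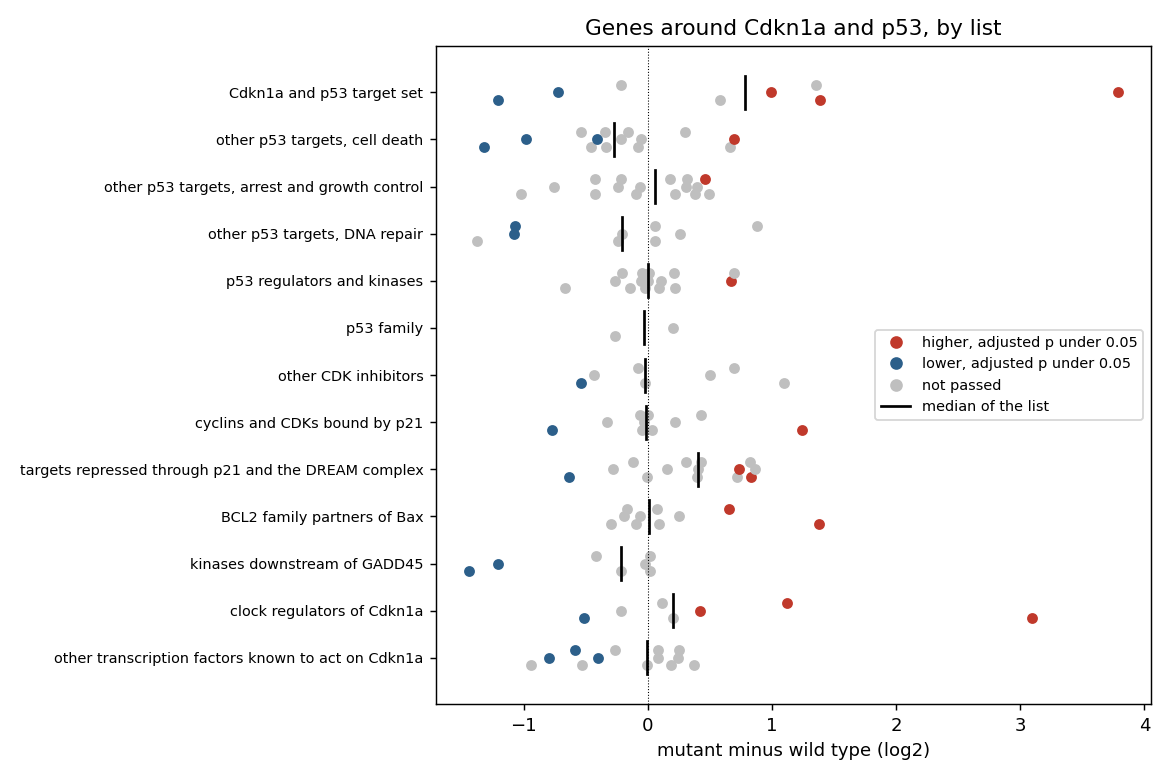
Mutant minus wild type difference on the log2 scale (horizontal axis) of every measured gene in 13 lists, coloured by the limma call, with the median of each list as a black bar. Cdkn1a at 3.79 and Arntl at 3.10 stand apart from the other genes.

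All 25 called genes of these lists had groups that did not overlap, as had 28.4% of all named genes. The call itself favours separated groups, so this adds no support to the calls. When wild type replicates 2 and 3 were left out, 19 of the 25 called genes no longer passed, with adjusted p = 0.0557 to 0.247 in limma. The 6 that did were Bid, Mgmt, Ccna2, Bik, Map2k3 and Arntl. Leaving out a single mouse ended the call of 12 of the 25 in at least 1 of the 8 refits, and of Nfe2l2 in all 8. Over all 18 alternatives Nfe2l2 and Cdkn1c lost their call in 14 each, Triap1 in 12, Aen in 11, and Sesn2 and Per2 in 10 each. With each gene read from its widest-ranging probe in place of the probe mean, the difference was 1.70 for Tnfrsf10b, 0.98 for Sesn2, -1.67 for Mgmt, 1.46 for Top2a, -0.90 for Nfe2l2 and 2.54 for Per2. Each of these 6 was over 1.5 times the probe mean and passed. The calls of Ppm1d, Cdk6, Clock, Cdkn1c and Triap1 ended there (adjusted p = 0.124, 0.0609, 0.185, 0.0615 and 0.0571 in limma).

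Markers of some other cells moved with genotype as well. For the counts below, the shares of all named genes were 7.13% higher and 10.5% lower. Of 11 measured Kupffer cell and macrophage markers 10 rose and 0 fell in limma, with list means of 0.46 to 0.77 in mutants and -0.78 to -0.30 in wild types. Of 9 squamous epithelium markers 6 fell, with means of -1.52 to -1.05 in mutants and 1.05 to 3.14 in wild types. The 7 hepatocyte markers were even, with means of -0.17 to 0.07 in mutants and -0.04 to 0.13 in wild types, and 1 of them fell. In the neutrophil list 1 of 8 rose, in the lymphocyte list 1 of 8 and in the endothelial list 0 of 7. The neutrophil list means were -0.055 to 0.77 in mutants and -0.43 to -0.083 in wild types. At an unadjusted p under 0.05 in limma, 3 neutrophil and 3 lymphocyte markers were higher and 0 of either were lower. The shares of all rows there were 13.7% higher and 16.6% lower. Of 8 stellate cell and fibroblast markers 3 rose and 1 fell, of 5 cholangiocyte markers 1 rose, of 4 erythroid markers 2 fell and of 4 pancreatic acinar markers 0 passed. At an unadjusted p under 0.05 in limma, 2 endothelial and 0 acinar markers were higher and 0 of either were lower, and 0 macrophage markers were lower. In whole liver RNA, fewer cells of a type and less RNA per cell cannot be told apart. The part of these markers in the results for Cdkn1a and the p53 target genes was not tested.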

How the data were processed

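Livers of 8 mice, 4 of each genotype, were run on 1-colour Agilent arrays, per the labels. The deposited values were read as log2 with higher meaning brighter, since neither was stated. They were normalised by a method not given in the sources used here, with every probe's median set to 0. Base 2 was inferred from their range. Each array was shifted to a common 75th percentile, by -0.09 to -0.01 in mutants and by 0.05 to 0.07 in wild types. After 78 control features were set aside, 41174 probes were kept. A single symbol was annotated for 32664 of them, several for 45 and none for 8465. The mean over a gene's probes was used for 19532 named genes, and with the remaining single probes there were 28042 rows. All 8 columns were mapped, with 0 unused.

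The model was limma's (version 3.58.1 under R 4.3.3), a two-sided test with lmFit and eBayes, with Benjamini-Hochberg adjustment over all rows and a threshold of 0.05. Single values also had an exact permutation test. The procedure was tested on simulated data. Precision is limited by having 8 arrays. The members and lists were chosen with earlier results of these data known, and so were the alternatives. They were other scalings (as deposited, quantile, common median), the widest probe per gene, robust variance, array weights, a replicate block, leaving out mice, a control feature covariate and an unadjusted threshold. Every member was described. From each list the called genes were named, at most 4 in each direction, or the 2 with the smallest p where none passed. Nr1d1 and Rora were named outside this rule, after their values were seen. The 8 nearest genes were ranked without predicted genes. Plots used Python 3.11.15 and matplotlib 3.10.9.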

Additional observations from a re-analysis of the deposited data

How the results depend on the processing

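Over the 18 alternatives no difference of the 8 genes changed sign. Of the 144 refits 133 kept the side of the threshold, 10 lost a call and 1 gained one, Gadd45g at an unadjusted p of 0.0348. Cdkn1a kept its call in all 18, with differences of 3.39 to 4.19 and, in the 17 that adjust, adjusted p-values of 0.00432 to 0.0405. The 2 genes of the set that fell became 0 with the replicate block or when wild type replicates 2 and 3 were left out, and 1 or 2 when single mice were left out. Whether the replicate numbers pair the mice is not known. Deviations of same-numbered livers correlated at -0.10 to 0.10, and 2 of 4 mutants were nearest to their own number. So few correlations cannot exclude a shared batch. With the block 2 genes of the set rose, and Gadd45b had adjusted p = 0.0513, Ccng1 0.065 and Gadd45a 0.0681.

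Of the other p53 targets, 2 rose and 5 fell. The number that rose was 3 as deposited and with array weights, and 1 with quantile scaling and with the block. It was 0 without wild type replicates 2 and 3, 6 at an unadjusted p under 0.05 and 1 to 2 without single mice. The number that fell was 3 as deposited and with the control feature mean as a covariate, 2 with the block and without those mice, 9 unadjusted and 2 to 5 without single mice. Of all 123 measured pathway genes outside the set 11 rose and 14 fell, beside 7.13% and 10.5% of named genes. The rises were 14 as deposited, 5 with the block, 3 without those mice and 21 unadjusted. The falls were 9 as deposited and with the covariate, 5 with the block, 3 without those mice, 25 unadjusted and 5 to 11 without single mice. Trp73 reversed without wild type replicates 2 and 3 (-0.38) and with the covariate (-0.024), and lay between -0.0083 and 0.65 without single mice, never passing. Rows called higher and lower fell to 1010 and 1016 with the block and to 879 and 887 without those mice. The cause was not tested. As the values are centred, signal over background is unknown.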
